A study of Mus musculus with 8 samples.

Results

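Map2, Map1b, Tbca, Dynll2 and Dynlt1 encode microtubule proteins and light chains of the dynein motor, and they were measured here in right hippocampus of mice with and without the T-type calcium channel Cav3.2. The members were chosen by gene symbol, and the genes themselves were selected with earlier results of the same arrays known: Map2 on the difference between trained knockout and trained wild-type mice, Map1b, Dynll2 and Dynlt1 on the differences between genotypes, and Tbca on the training difference in wild-type mice. Every probe with values that carried one of these symbols was taken, which gave 9 probes of 5 genes out of 11011 genes with a symbol and values. All 9 probes passed the filter on low values (an intensity above 100 on at least 2 of the 8 arrays), although the Map1b probe mMR031064 passed only through the knockout arrays and had to differ between genotypes to be tested at all.

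The 8 single-colour arrays fall into 4 groups of 2. WNR holds naive wild-type C57BL/6 mice (C57BL/6J in the study's methods), WTR wild-type mice after trace fear conditioning (TFC) and a contextual memory test, KNR naive Cav3.2 knockout mice, and KTR knockout mice after the same training and test. TFC separates a tone from a foot shock by an empty interval, and the trained mice were killed directly after the memory test. The mice were males of 6 to 8 weeks, the knockout was homozygous and constitutive for Cacna1h on a line bred to the C57/BL6 background, and each group's RNA came from pooled right hippocampi of 3 animals. The naive mice are labelled as untreated, so training, handling and retrieval cannot be told apart. With 3 mice to a group and pools of 3, the study's methods point to duplicate arrays of the same animals, and they speak both of technical replicates and of repeated array analyses without tying either to the deposited arrays. The p-values here therefore reflect array-to-array spread, which may be technical, and not spread between animals.

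Microtubules are hollow polymers of alpha- and beta-tubulin that serve as tracks for transport in axons and dendrites. Map2 binds and stabilizes them in dendrites and the cell body, and Map1b does so in growing axons and in spines. Tbca is a chaperone that holds beta-tubulin during folding before alpha- and beta-tubulin are joined. Cytoplasmic dynein carries cargo towards the minus end, and its light chains Dynll2 (LC8 family) and Dynlt1 (Tctex family) bind the intermediate chain of the motor and also many proteins outside it.

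The Dynlt1 symbol is not a single gene. The mouse annotation lists 4 genes, Dynlt1a, Dynlt1b, Dynlt1c and Dynlt1f, under that older name, and all 4 lie on chromosome 17. The promoters of the 2 copies that RefSeq sequences covered here are printed to show how alike the copies are (GRCm38.p6, each 300 bases, the longest run shared by both in capitals). Dynlt1c lies on the plus strand at chr17:6601529-6601828 and Dynlt1f on the minus strand at chr17:6655890-6656189.
Dynlt1c: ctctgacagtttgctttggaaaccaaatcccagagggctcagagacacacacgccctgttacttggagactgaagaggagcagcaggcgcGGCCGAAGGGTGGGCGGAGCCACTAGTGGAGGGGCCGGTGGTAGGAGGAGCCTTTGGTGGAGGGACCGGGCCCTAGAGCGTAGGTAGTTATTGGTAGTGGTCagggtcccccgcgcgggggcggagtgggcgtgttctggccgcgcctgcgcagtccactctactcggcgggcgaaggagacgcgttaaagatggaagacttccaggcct
Dynlt1f: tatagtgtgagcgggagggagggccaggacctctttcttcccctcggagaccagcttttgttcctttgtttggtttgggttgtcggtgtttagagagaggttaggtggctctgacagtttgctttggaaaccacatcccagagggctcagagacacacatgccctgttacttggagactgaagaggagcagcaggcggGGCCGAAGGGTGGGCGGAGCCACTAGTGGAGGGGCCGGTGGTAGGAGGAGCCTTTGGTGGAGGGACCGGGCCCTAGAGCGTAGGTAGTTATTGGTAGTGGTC
The shared run was 102 bases long. Laid side by side without gaps, 189 of 192 bases were identical (98.4%). The probe sequence was not used here, so the Dynlt1 values below may hold any or several of the copies. Cacna1h also lies on chromosome 17, with 542 to 556 annotated genes between it and the copies, and the part of that shared chromosome in the Dynlt1 values was not tested.

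Values are intensities that the authors had quantile normalized, and differences are on the log2 scale after values under 100 were set to 100, with the standard error (SE) from a limma fit of all 8 arrays. Median intensity lay between 484.7 and 485.4 on every array, and between 5.76% and 5.9% of probes lay under 100. Log2 values correlated at 0.9879 to 0.9911 between duplicates and at 0.9455 to 0.988 between other arrays, and KNR replicate 1 and KTR replicate 2 lay at the ends of the first principal component. The number of arrays limits the precision. The Cacna1h probe read 2384.6 to 2576 in WNR, 2084.5 to 2339.9 in WTR, 1488.7 to 1550.5 in KNR and 1036 to 1439.5 in KTR, lower in knockout by 0.78 ± 0.12 (log2, SE, adjusted p = 0.031, limma), a call that was lost on leaving out any of 7 of the 8 arrays. Where that probe lies relative to the deleted part is not given in the sources used here, so the value checks the labels only weakly. All 10 measured neuron markers were above 100 on every array, and 8 of them above 1000.

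**Figure D1:**
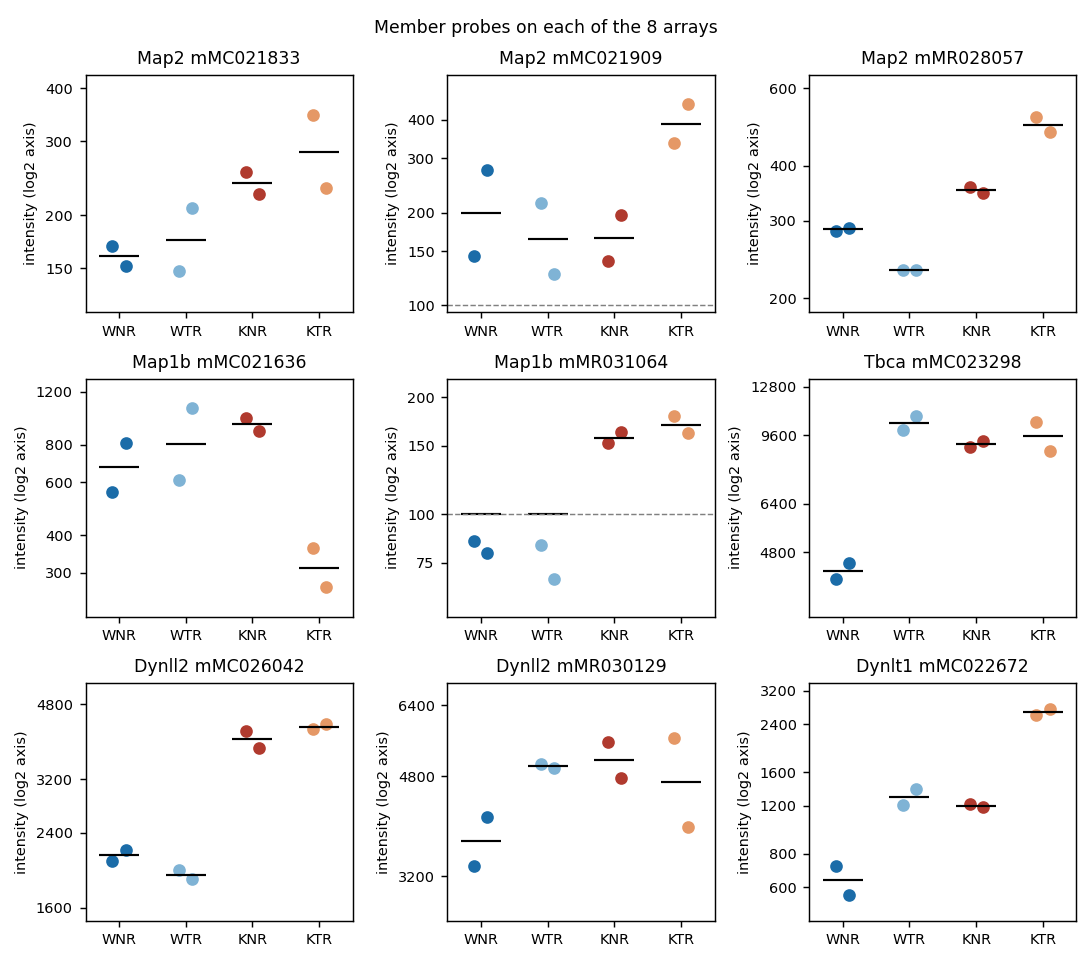
Intensity of the 9 member probes (vertical axes, log2 scaled, intensity units) in the 4 groups, with 1 point per array and a bar at the geometric mean after the floor of 100 (dashed). Tbca was low on both WNR arrays alone, Dynlt1 was highest on both KTR arrays, and the Map1b probe mMR031064 lay under the floor on all 4 wild-type arrays.

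Map2 was represented by 3 probes, and all 3 were higher on both trained knockout arrays than on both trained wild-type arrays. Probe mMR028057 had the tightest duplicates. It read 285 and 289 in WNR, 232.0 and 232.0 in WTR, 358 and 346 in KNR, and 516 and 477.5 in KTR. No groups overlapped, and the order of the levels was WTR, WNR, KNR, KTR. The difference KTR minus WTR, which chose the gene, was 1.1 ± 0.09 (log2, SE), a 2.14-fold difference. In naive mice KNR exceeded WNR by 0.30 ± 0.09. This difference, which the choice did not use, missed the threshold (adjusted p = 0.091, limma, 95% interval 0.07 to 0.52). The choice favours a large KTR minus WTR, so the sizes of these 2 differences are not compared. Training was accompanied by a lower value in wild-type mice (-0.31 ± 0.09) and a higher value in knockout mice (0.50 ± 0.09), so that the training difference averaged over genotypes was 0.09 ± 0.07 (adjusted p = 0.34, limma, interval -0.06 to 0.25).

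The other Map2 probes were dimmer and more scattered. Probe mMC021833 read 169 and 152 in WNR, 147 and 208 in WTR, 253 and 224 in KNR, and 345 and 232 in KTR. Knockout arrays were higher than wild-type arrays in both states, and naive and trained arrays overlapped within each genotype. KNR minus WNR was 0.57 ± 0.23 (adjusted p = 0.15, limma) and KTR minus WTR was 0.69 ± 0.23. Probe mMC021909 read 145 and 275 in WNR, 214 and 126 in WTR, 139 and 197 in KNR, and 336 and 448 in KTR. Only KTR stood apart on this probe, with WNR, WTR and KNR overlapping. KTR minus WTR was 1.24 ± 0.37, whereas KNR minus WNR was -0.27 ± 0.37 (adjusted p = 0.67, limma). Its WNR duplicates were 1.9-fold apart and its WTR duplicates 1.7-fold, against a median of 1.11-fold over all probes tested. The averaged training difference was 0.19 ± 0.16 for mMC021833 (adjusted p = 0.43, limma) and 0.47 ± 0.26 for mMC021909 (adjusted p = 0.24).

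The 3 Map2 probes thus shared the sign of KTR minus WTR, the difference that chose the gene, so their agreement there is not independent of the choice. In KNR minus WNR mMC021909 had the opposite sign, with an interval of -1.16 to 0.61. That value was 0.19 without WNR replicate 2 and -0.73 without WNR replicate 1, so its sign is not settled. Over the 8 arrays, log2 values of mMR028057 correlated at 0.80 with mMC021833 and at 0.68 with mMC021909, while the 2 dimmer probes correlated at 0.24. These are descriptions over 8 arrays that share 4 groups. In hippocampal tissue, fewer cells of a type and less RNA per cell cannot be told apart for any member.

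Map1b gave 2 probes that disagreed. On probe mMC021636 the gene was lowest in trained knockout mice. Values were 556 and 813 in WNR, 609 and 1061 in WTR, 981 and 889 in KNR, and 364 and 268 in KTR. Both KTR arrays lay under all 6 others, KNR lay above WNR, and WTR overlapped WNR and KNR. KTR minus WTR was -1.36 ± 0.30 (log2, SE), a 2.57-fold lower level, and KTR minus KNR was -1.58 ± 0.30. KNR minus WNR ran the other way at 0.47 ± 0.30, with an interval of -0.23 to 1.18. The duplicates of WTR were 1.74-fold apart, and KTR minus WTR was -1.76 without WTR replicate 1 and -0.96 without WTR replicate 2. Averaged over genotypes, training was accompanied by a difference of -0.66 ± 0.21 that missed the threshold (adjusted p = 0.076, limma, interval -1.16 to -0.16).

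The second Map1b probe, mMR031064, was dim. It read 85.2 and 79.3 in WNR, 83.3 and 68.2 in WTR, 152 and 162 in KNR, and 178 and 161 in KTR. All wild-type arrays were under the floor of 100, all knockout arrays were above it, and KNR and KTR overlapped. The knockout level was at least 1.57-fold higher in naive mice and at least 1.7-fold higher in trained mice. The averaged training difference was 0.05 ± 0.07 (adjusted p = 0.6, limma). The floor fixed WTR minus WNR at 0.0, and the floored arrays added no spread to the SE. This test therefore cannot decide about training in wild-type mice. Among trained mice the genotype differences of the 2 Map1b probes had opposite signs, and their log2 values correlated at -0.41 over the arrays. Averaging the 2 probes before the fit gave a KTR minus WTR of -0.30, a sign that held for mMC021636 and was reversed for mMR031064.

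**Figure D2:**
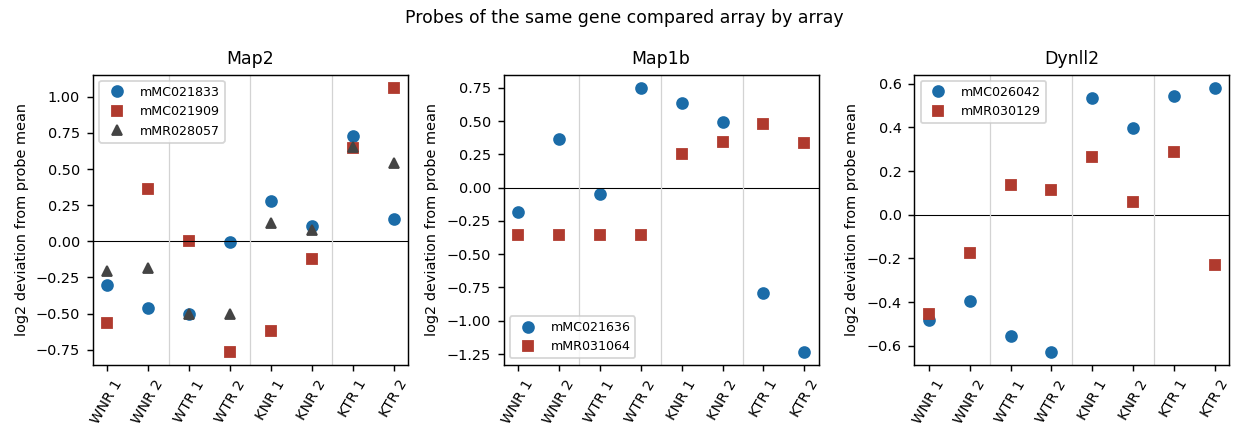
Log2 deviation of each probe from its own mean over the 8 arrays (vertical axis, log2 units, after the floor of 100) for the 3 genes with several probes, array by array. The Map2 probes all lay above 0 on both KTR arrays, the Map1b probes took opposite sides there, and the Dynll2 probes parted on both WTR arrays and on KTR replicate 2.

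Tbca, the beta-tubulin chaperone, was low in naive wild-type mice and about equally high in the other 3 groups. Its probe mMC023298 read 4093 and 4499 in WNR, 9894 and 10729 in WTR, 8945 and 9253 in KNR, and 10352 and 8762 in KTR. Neither WNR array overlapped any other array, and the values of KTR spanned those of KNR and overlapped those of WTR. WTR minus WNR, which chose the gene and on which the study also listed it, was 1.26 ± 0.12 (log2, SE), a 2.4-fold difference. KNR minus WNR was 1.08 ± 0.12 against the same WNR arrays. In knockout mice, whose arrays the choice did not use, KTR minus KNR was 0.07 ± 0.12 (adjusted p = 0.71, limma, interval -0.22 to 0.35). KTR minus WTR was -0.11 ± 0.12.

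Averaged over training states, Tbca was higher in knockout mice by 0.49 ± 0.08 (adjusted p = 0.039, limma), with KNR above WNR on both arrays and KTR overlapping WTR. The average thus rests on the low WNR arrays. It shares the WNR and WTR arrays and the fitted spread with the difference that chose the gene. Its p-value is therefore not fully independent of that choice. The value kept its sign without any 1 of the 8 arrays (0.43 to 0.55) but not its call, with adjusted p between 0.071 and 0.12 for each array left out in turn, so that the call rests on all 8 arrays.

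Dynll2, a light chain of the LC8 family, was higher in knockout mice on probe mMC026042. That probe read 2062.5 and 2191 in WNR, 1959.5 and 1865.5 in WTR, 4167 and 3798 in KNR, and 4197 and 4311 in KTR. Every knockout array lay above every wild-type array. KNR minus WNR was 0.90 ± 0.10 (log2, SE) and KTR minus WTR was 1.15 ± 0.10, or 1.87-fold and 2.22-fold. The training differences were small and of opposite sign, -0.15 ± 0.10 in wild-type and 0.10 ± 0.10 in knockout mice. Their average was -0.03 ± 0.07 (adjusted p = 0.79, limma, interval -0.20 to 0.14).

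The brighter Dynll2 probe, mMR030129, did not repeat that pattern. It read 3344 and 4069 in WNR, 5035 and 4967 in WTR, 5506 and 4770.3 in KNR, and 5598 and 3914 in KTR. WNR had the lowest level, overlapping KTR, and the KTR arrays spanned the WTR arrays and all of KNR. KNR minus WNR was 0.47 ± 0.19, and KTR minus WTR was -0.10 ± 0.19 with an interval of -0.54 to 0.35. KTR minus WTR was 0.16 without KTR replicate 2 and -0.35 without KTR replicate 1. The averaged training difference was 0.15 ± 0.13 (adjusted p = 0.43, limma). The 2 Dynll2 probes shared the sign of the genotype difference in naive mice alone, and their log2 values correlated at 0.32.

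Dynlt1, a light chain of the Tctex family, differed with both genotype and training. Probe mMC022672 read 719.5 and 565 in WNR, 1212.5 and 1380.5 in WTR, 1215 and 1187 in KNR, and 2594 and 2734 in KTR. WNR lay under all other arrays and KTR above them, while WTR and KNR differed by less than the spread of their arrays. KNR minus WNR was 0.91 ± 0.14 (log2, SE) and KTR minus WTR was 1.04 ± 0.14, the 2 differences on which the gene was chosen. The training differences were 1.02 ± 0.14 in wild-type mice and 1.15 ± 0.14 in knockout mice.

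Averaged over genotypes, Dynlt1 was higher after training by 1.08 ± 0.10, a 2.12-fold difference (adjusted p = 0.015, limma, interval 0.85 to 1.32), and all trained arrays lay above the naive arrays of their genotype. The SE comes from the same fit as the genotype differences that chose the gene, so this p-value is not fully independent of the choice. Of all 16204 probes tested, 5.36% were called higher after training and 8.71% lower. The difference stayed between 1.0 and 1.17 when 1 array was left out. The call was lost without KNR replicate 1 (1.09, adjusted p = 0.072), WNR replicate 2 (1.0, adjusted p = 0.058) or WTR replicate 1 (1.13, adjusted p = 0.064). Of the 8 probes tested on the averaged training difference, that of Dynlt1 alone was called by this fit. The interaction, the training difference in knockout minus that in wild-type mice, was 0.13 ± 0.20 with an interval of -0.34 to 0.59.

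**Figure D3:**
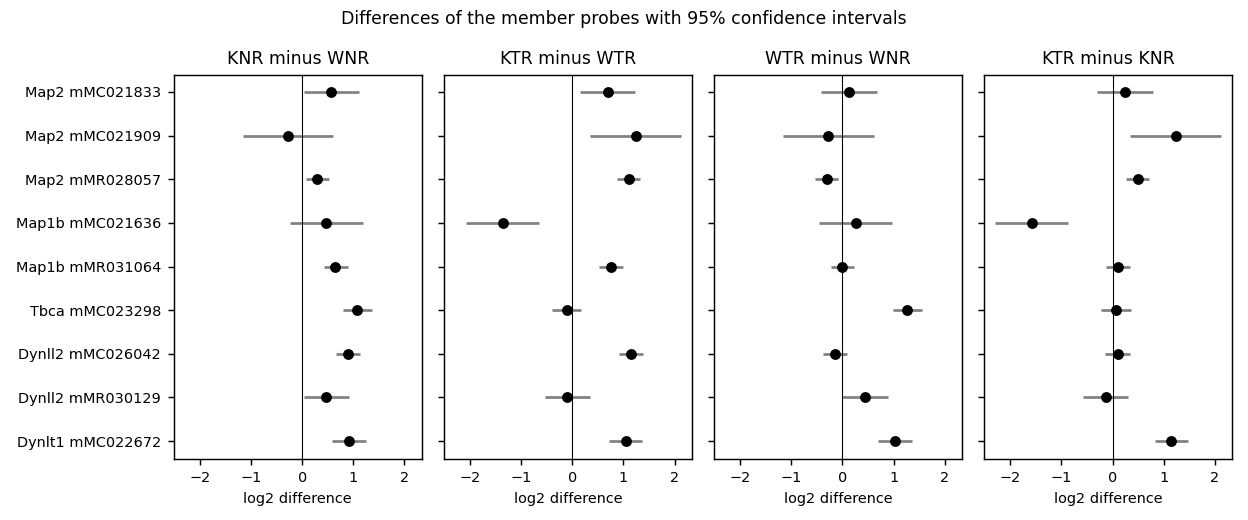
Log2 differences of the 9 member probes (points) with 95% confidence intervals (lines) from the limma fit of 8 arrays, in the 4 comparisons between groups (horizontal axes, log2 units). Dynlt1 lay above 0 in all 4 panels, Tbca in KNR minus WNR and WTR minus WNR with intervals clear of 0, and the Map1b probe mMC021636 lay below 0 in KTR minus WTR and KTR minus KNR.

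Set side by side, the members did not share a pattern over the 4 groups. The Map1b probe mMR031064 and the Dynll2 probe mMC026042 were the most alike pair of different genes (Pearson r = 0.98 over 8 arrays), with the knockout arrays high on both. That value was fixed by the choice of genes on genotype and by the floor, at which all 4 wild-type arrays of mMR031064 were set, and nothing is read from it. Map2 mMR028057, also chosen on a genotype difference, correlated with Dynll2 mMC026042 at 0.91. The lowest value between members was -0.81, for Map2 mMC021909 and Map1b mMC021636. Among single duplicates the Map2 probe mMC021909 and the Map1b probe mMC021636 were the most scattered. The 90th percentile of the fold between duplicates was 1.36 over all probes tested, and 8 of the 36 pairs of member duplicates exceeded it.

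For the brightest probe of each member, the probes of most similar pattern were ranked among 10086 named probes with a mean above 200. Map2 was most like Scn3b (r = 0.983), a sodium channel subunit, Arih1 (0.977), a ubiquitin ligase, and Mfap3 (0.971). Map1b mMC021636 was most like Cebpb (0.997), a leucine zipper transcription factor, Med7 (0.989), a Mediator subunit, and Kcnab3 (0.989), a potassium channel subunit. For Tbca these were Mettl26 (0.994), Tnrc6a (0.990), which acts in miRNA silencing, and Anapc13 (0.990), a subunit of the anaphase-promoting complex. For Dynll2 mMR030129 they were Polr2h (0.983), an RNA polymerase subunit, Swsap1 (0.975) and Babam2 (0.972). For Dynlt1 they were Psmb8 (0.983), an immunoproteasome subunit on chromosome 17 in the annotation, Gnai1 (0.972), an inhibitory G protein subunit, and Pam (0.971), a peptide-amidating enzyme. The ranges differed from those of the members. Cebpb for example ran from 779 to 1152 where Map1b ran from 268 to 1061. With rank correlation in place of Pearson's, 4 of these 15 genes stayed among the 3 most alike.

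Nearest relatives of the members were read for contrast, and 7 of 9 had a probe with values. Tbcb, the alpha-tubulin counterpart of Tbca, read 2445 and 2301 in WNR, 2997 and 3356 in WTR, 3061 and 3195 in KNR, and 2194 and 2075 in KTR. Training went with higher values in wild-type and lower values in knockout mice, with no overlap in either genotype. KTR minus KNR was -0.55 ± 0.10 (adjusted p = 0.026, limma), and the interaction was -0.97 ± 0.15 (adjusted p = 0.032). Tbca itself had an interaction of -1.20 ± 0.17, given with no test because its choice used WTR minus WNR. Tbcd, which works downstream of Tbca in tubulin folding, was higher in knockout mice by 0.46 ± 0.09 averaged over training (adjusted p = 0.048). Each of these calls of Tbcd and of the Tbcb interaction was lost without any 1 array (adjusted p 0.057 to 0.14), and that of Tbcb in KTR minus KNR without 4 of the 8. Tbcc, which completes that folding, had its largest difference in WTR minus WNR at 0.39 ± 0.09 (adjusted p = 0.052).

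Mapt, the axonal protein tau, was higher in KNR than in WNR by 0.63 ± 0.14 (adjusted p = 0.044, limma), with 6183 and 5418 in WNR against 9378 and 8610.2 in KNR, and by 0.34 ± 0.14 in KTR against WTR (adjusted p = 0.22). The first of these was lost without any 1 array (0.54 to 0.73, adjusted p 0.05 to 0.2). Map1a, a close relative of Map1b, was dim, at 85.2 to 193.7 over the arrays, with a KNR minus WNR of 0.60 ± 0.17 (adjusted p = 0.073). Map4, a MAP found in most cells, stayed within 0.16 of 0 on the log2 scale in the 4 comparisons between groups. Dynlt3, the other Tctex light chain, had a genotype difference of -0.06 ± 0.18 and a training difference of -0.37 ± 0.18 (adjusted p = 0.86 and 0.19), where Dynlt1 had 0.98 ± 0.10 and 1.08 ± 0.10.

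Beyond the members, 205 other genes in 11 lists of microtubule and motor genes were tested, each by its brightest probe. In KNR minus WNR, 6 of them were higher and 9 lower, or 2.93% and 4.39%, where 4.7% and 3.33% of all probes were called. In KTR minus WTR none was higher and 4 were lower (Tbcb, Vbp1, Hdac6 and Ppp2r2c) by limma, against 0.741% and 1.26% of all probes. At an unadjusted p under 0.05 these counts were 28 and 24. Significance analysis of microarrays (SAM), the study's method written anew here, called 0 of the list genes there. In WTR minus WNR 7 were higher and 7 lower, 3.41% each, against 3.25% and 2.99%. In KTR minus KNR 10 were higher and 19 lower, or 4.88% and 9.27%, against 6.6% and 9.29%. The interaction was called in 4 higher and 3 lower genes, against 1.83% and 3.35% of all probes. These shares lay near those of all probes, and the lists are described by their counts. Leaving out 1 array left between 0 and 8 calls in KNR minus WNR, 0 in KTR minus WTR, 0 or 1 in WTR minus WNR, 0 to 23 in KTR minus KNR and 0 in the interaction. Their median log2 difference was -0.07, 0.04, -0.10 and -0.02 in the 4 comparisons between groups, where that of all probes lay within 0.01 of 0.

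In KNR minus WNR the 2 largest increases were Mapre3, a plus-end binding protein (1.02 ± 0.12, adjusted p = 0.017, limma), and Map1lc3a, the autophagy protein first known as a MAP1 light chain (0.86 ± 0.10, adjusted p = 0.016). The 2 largest decreases were the tubulin glycylase Ttll8 (-1.11 ± 0.21, adjusted p = 0.034) and the plus-end protein Clasp2 (-0.80 ± 0.15, adjusted p = 0.032). Ttll8 was dim, at 251.5 and 243.4 in WNR against 82.9 and 130.8 in KNR, and its value of 82.9 was set to 100. Map1lc3a read 5152 and 5146 in WNR and 9517 and 9122 in KNR. In KTR minus WTR the largest decreases were the prefoldin subunit Vbp1 (-1.41 ± 0.23) and the phosphatase subunit Ppp2r2c (-0.85 ± 0.14), both with an adjusted p of 0.04. In WTR minus WNR the kinesin Kif22 rose by 0.77 ± 0.10 and Mapre3 by 0.65 ± 0.12, while the tubulin deacetylase Hdac6 fell by 0.73 (SE 0.11) and the plus-end protein Mapre2 by 0.69 (SE 0.13). In KTR minus KNR the katanin-like Katnal2 rose by 0.99 ± 0.17 and the glutamylase Ttll6 by 0.90 ± 0.18, and Vbp1 fell by 1.12 (SE 0.23) and Ppp2r2c by 1.02 (SE 0.14). The limma fit of the 4 arrays of a comparison called 0 list genes in each of the 4 comparisons, with 41 to 63 at an unadjusted p under 0.05. Without each array in turn, the named calls in KTR minus KNR were lost for 2 or 3 of the 8 arrays, those in KNR minus WNR for 4 to 6, those in WTR minus WNR for 6 to 8 and those in KTR minus WTR for all 8, and every difference kept its sign.

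Averaged over training, 4 of the 205 genes were higher and 4 lower in knockout mice, 1.95% each, against 1.98% and 1.59% of all probes. Mapre3 (0.71 ± 0.08) and Map1lc3a (0.56 ± 0.07) led the increases, and Nav3 (-0.47 ± 0.09) and the glutamylase Ttll7 (-0.46 ± 0.07) the decreases. Averaged over genotypes, 7 were higher after training and 24 lower, or 3.41% and 11.7%, beside the 5.36% and 8.71% of all probes given above for Dynlt1. Hdac6 fell by 0.86 (SE 0.08, adjusted p = 0.015, limma) and the plus-end associated Tacc1 by 0.68 (SE 0.14, adjusted p = 0.03), and Kif22 rose by 0.55 (SE 0.07) and the dynein light chain Dynlrb2 by 0.45 (SE 0.09). Without 1 array, 0 or 1 of the 8 genotype calls and 0 to 16 calls of training were made.

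The dynein list, apart from the members, held 8 tested genes. Of all probes 5.36% were called higher and 8.71% lower after training, and 1.83% and 3.35% in the interaction. Of the 8 dynein genes 2 were higher after training, the roadblock light chains Dynlrb2 and Dynlrb1 (0.33 ± 0.07, adjusted p = 0.033, limma), and 2 were lower, the intermediate chain Dync1i1 (-0.31 ± 0.07, adjusted p = 0.037) and Dync2li1 of the ciliary motor. Dynlrb1 read 14681 and 14129 in WNR, 21369 and 23989.7 in WTR, 18985.5 and 19174 in KNR, and 19518 and 18881 in KTR. Its training difference in wild-type mice was 0.65 ± 0.10, and KNR and KTR overlapped. The interaction of Dynlrb1 was not called, so the difference is not assigned to 1 genotype. Dync1i1 carries the binding sites of the light chains. It read 5666 and 5261 in WNR, 3390.2 and 3370 in WTR, 4092 and 3965 in KNR, and 4445 and 4035 in KTR, and the interaction was 0.76 ± 0.14 (adjusted p = 0.04). Of the 21 plus-end proteins 1 was higher and 7 lower after training, and of the 18 tubulin folding genes 0 were called on that average, while 3 were called lower in the interaction (Tbcb, Pfdn2 and Pfdn4). Of 16 binding partners of the light chains, 1 was called lower and 1 higher in KTR minus KNR. That is 6.25% each, against 9.29% and 6.6% of all probes. They were Ambra1 (-0.94 ± 0.25, adjusted p = 0.047, limma) and Arhgef2 (0.58 ± 0.14, adjusted p = 0.04). In KNR minus WNR 0 were higher and 1 was lower, Tmem106b (-0.72 ± 0.11, adjusted p = 0.024), or 6.25% against 3.33% of all probes. The dynein, folding and partner genes of these sentences were named after their values were seen, other than Tbcb, Pfdn2 and Dynlrb2.

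**Figure D4:**
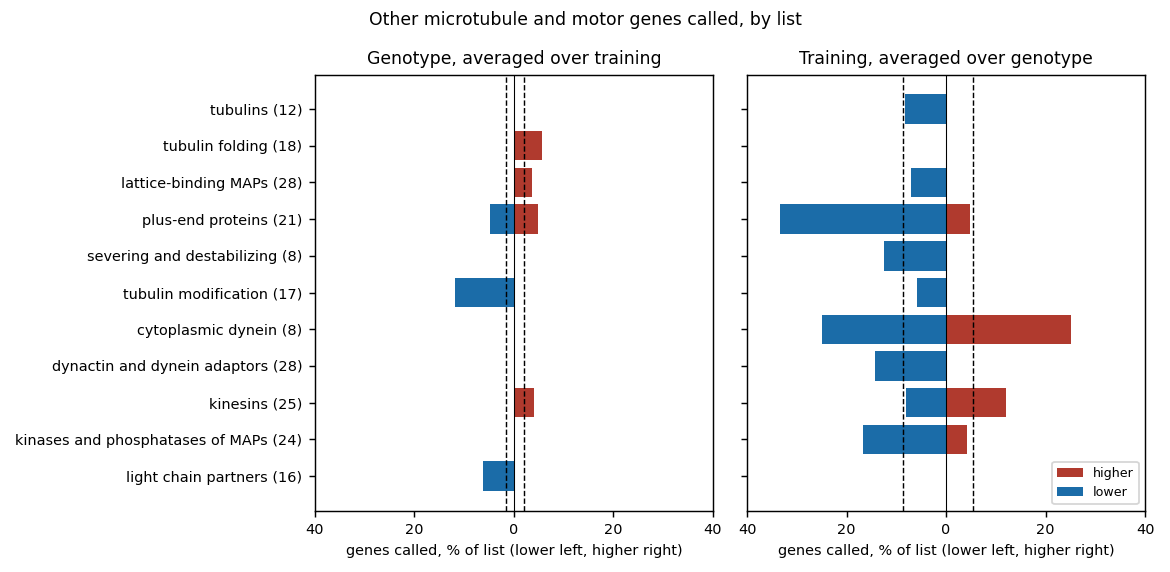
Share of tested genes called higher (to the right) or lower (to the left) in each of the 11 lists (horizontal axes, percent of the list, list size in parentheses), for genotype averaged over training and training averaged over genotype. Dashed lines mark the shares among all 16204 probes, and the plus-end proteins lay furthest beyond the line for lower genes after training, with 7 of 21.

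Markers of other cell types were read on the same arrays. The median deviation of the 10 hippocampal field markers from their mean over arrays was between -0.50 and 0.18, lowest on KTR replicate 2 (-0.50) and KTR replicate 1 (-0.23), the arrays on which the Map1b probe mMC021636 was lowest. That of the 10 neuron markers lay between -0.06 and 0.09 on every array. Choroid plexus markers, of which 5 of 7 were above 100 throughout, stood at 0.30 and 0.52 on the WTR arrays and between -0.13 and 0.04 elsewhere, and those of meningeal cells at -0.29 and -0.36 on the WNR arrays, where Tbca and Dynlt1 were low, and between -0.04 and 0.18 elsewhere. The 5 measured ciliated cell markers stood at -0.27 and -0.17 on the KNR arrays and between -0.03 and 0.06 elsewhere. Median deviations lay between -0.25 and 0.18 for astrocytes, -0.15 and 0.15 for oligodendrocytes, and -0.31 and 0.17 for microglia. Those of the 6 endothelial markers were 0.15 and 0.29 in WNR and 0.34 and 0.21 in KNR, above the values of -0.14 and 0.13 in WTR and -0.06 and 0.01 in KTR. They thus separated naive from trained arrays by a narrow margin, with 0.15 on WNR replicate 1 against 0.13 on WTR replicate 2. Of the 6 markers 1 was above 1000 on every array. Dynlt1 separated naive from trained arrays within each genotype in the opposite direction. Foxj1, Tekt1, Folr1, Sostdc1 and Tmem119 were under 100 on at least 1 array. The part of cell makeup in the values of the members was not tested.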

How the data were processed

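Right hippocampal RNA of 4 groups (WNR, WTR, KNR, KTR) was measured on 8 single-colour arrays. The authors deposited linear intensity values that had been quantile normalized, and background correction and spot filters are not given in the sources used here. Of 29922 probes, 16383 had values, and 13072 of these carried a single gene symbol, 2101 of them updated through the RefSeq gene table (GRCm38.p6). The members and gene lists were chosen with earlier results of these data known.

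Values under 100 were set to 100, here after the quantile normalization, and log2 transformed. Probes above 100 on at least 2 of the 8 arrays (16204) were fitted with 4 group means in limma 3.58.1 (R 4.3.3), with two-sided moderated tests, 4 residual degrees of freedom and Benjamini-Hochberg adjustment over all probes tested at 0.05. The fit was tested on simulated data. Differences on which a member was chosen, or that share arrays with that choice, are given with no test. Averages over genotype or training that are orthogonal to the choice were tested although they share its arrays, as were comparisons without its arrays. All of them take their SE from the same fit as the choosing differences, so their p-values are not fully independent of the choice. Folds compare geometric means of floored values.

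List genes took the probe of highest mean. Named were every member probe, the nearest relatives, the 3 probes most like each member, and per contrast the 2 list genes of largest difference in each direction among called genes without overlap and above 200 in the higher group. For averages and the interaction, where no such 2 groups exist, at least 2 arrays had to lie above 200.

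Alternatives were a floor of 50, no floor, repeated quantile normalization after the floor, no filter, a filter at 200, fits of 4 arrays, the replicate number as a block, arrays left out, means of probes, rank correlation, and SAM written anew (q under 0.01, over 2-fold, 6 label orders). This version did not call Tbca in WTR minus WNR, where the study listed it, so its counts need not match those of the study. Same-numbered arrays correlated between -0.385 and 0.44 in their deviations from group means, so the numbers were not taken to pair samples.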

Additional observations from a re-analysis of the deposited data

Results flagged for a closer look

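For 3 member probes, a training or genotype difference took opposite directions in the 2 genotypes or training states with no overlap between arrays. How many of all probes do so was not counted, so nothing is read from this number. The difference between those directions was not tested because the members were chosen on contrasts of the same arrays. For the Map2 probe mMR028057 the training difference was -0.31 in wild-type and 0.50 in knockout mice, an interaction of 0.80 on the log2 scale. For the Map1b probe mMC021636 knockout arrays were higher in naive and lower in trained mice, an interaction of -1.84. For the Dynll2 probe mMC026042 training went with values lower by a small amount in wild-type and higher in knockout mice, an interaction of 0.25 whose interval ran from -0.09 to 0.59.

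In the limma fit of 8 arrays 1.83% of all probes were called higher and 3.35% lower in the interaction of genotype and training, and 7 of the 205 other microtubule genes were called. The largest in each direction were Tbcb (interaction -0.97, adjusted p = 0.032), the prefoldin subunit Pfdn2 (-1.01, adjusted p = 0.044), Katnal2 (1.16, adjusted p = 0.047) and the capping protein Capza1 (0.82, adjusted p = 0.041). The other 3 were Pfdn4 (-0.93), Dync1i1 (0.76) and Kif3c (0.68). Each of these 7 calls was lost when any 1 array was left out.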

How the results depend on the processing

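The call of the Tbca genotype average (0.49, adjusted p = 0.039) was kept under both other floors, both other filters and repeated normalization (adjusted p 0.033 to 0.045), and lost with the replicate number as a block (0.49, adjusted p = 0.08), without KNR replicate 1 and KTR replicate 2 together (0.56, adjusted p = 0.22) and without any single array (0.43 to 0.55). The training average of Dynlt1 was called with the replicate block (adjusted p = 0.031), and was not called without KNR replicate 1 and KTR replicate 2 together (1.07, adjusted p = 0.17). Without 1 array it ranged from 1.0 to 1.17 and lost its call for 3 of the 8 arrays. Of 208 values of the 13 tested member results under alternatives, 194 stayed on their side of the threshold. The 14 that changed side all belonged to the Tbca genotype average and the Dynlt1 training average, the only tested results that were called. The others were not called to begin with, so their staying is no sign of a stable call. Of 532 values given with no test, 57 moved by 1 SD or more. The Map1b probe mMR031064 changed sign in KTR minus WTR when the probes of the gene were averaged (-0.30). Over all 740 values 26 changed sign, 18 of them given with no test, such as Dynll2 mMR030129 in KTR minus WTR (0.53 with probes averaged).

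With the replicate block, 0 of the 205 list genes were called in KNR minus WNR, WTR minus WNR, the interaction and the genotype average. In KTR minus WTR 1 list gene was called, in KTR minus KNR 17 and in the training average 13. The labels do not say whether the replicate numbers pair samples, and why calls were lost with this block was not tested. Without KNR replicate 1 and KTR replicate 2 together, 0 were called in all 7 contrasts. The limma fit of 4 arrays called 0 list genes in the 4 comparisons between groups (41 to 63 at an unadjusted p under 0.05). SAM called 2 list genes in KTR minus KNR and 0 in the other comparisons. In KTR minus WTR, where the main count was 4, it was 2 with a floor of 50 or no floor, 1 with no filter, 7 with a filter at 200 and 8 with probes averaged. The genotype average gave 5 with a floor of 50 or no floor, and the interaction gave 11 with a filter at 200. Without 1 array the counts were 0 to 8 in KNR minus WNR, 0 in KTR minus WTR, 0 to 1 in WTR minus WNR, 0 to 23 in KTR minus KNR, 0 in the interaction, 0 to 1 in the genotype average and 0 to 16 in the training average. The cause was not tested, beyond the fewer arrays that such fits hold. The 3 probes most like each member changed under rank correlation, which kept 4 of 15. Map1b mMR031064 and the Map2 probes were dim, and the floor sets the size of the Map1b difference, which was 0.94 in naive and 1.17 in trained mice without it.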
